A study of Mus musculus with 4 samples.

Results

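A group of 10 genes of cellular iron handling was followed in MC38, a cell line from a mouse colon carcinoma. They were chosen by name for their known roles and not by their values, but with earlier results of these data known. They are 10 of the 24346 gene symbols in the tables. They comprise the siderophore carrier Lcn2, the uptake genes Tfrc, Steap3 and Slc11a2, the ferritin subunits Ftl1 and Fth1 with the ferritin cargo receptor Ncoa4, the exporter Slc40a1, and the iron sensors Aco1 and Ireb2. Polyadenylated RNA was sequenced in 2 libraries labelled as Arid5a-knockout (KO) MC38 cells and in 2 libraries labelled as wild-type (WT) MC38 cells, with no treatment in the labels. The labels do not say whether the KO cells were 1 clone, which part of Arid5a was deleted, or whether the libraries of a group came from separate cultures, so the p-values measure only the spread between these libraries. KPC cells, also named in the series design, were not analysed here.

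Arid5a, an RNA-binding protein known to stabilise mRNAs of inflammation, was the targeted gene and was examined first. Its FPKM (a fragment number scaled to transcript length and library depth) was 2.16 and 1.77 in KO-labelled libraries, against 0.225 and 0.124 in WT-labelled libraries. The WT-labelled values rest on few fragments, an estimated 2.3 to 18.4 in replicate 1 and 1 to 7.7 in replicate 2, depending on the transcript. The targeted transcript was thus higher in KO-labelled libraries, opposite to a loss of that transcript. Whether the labels are correct was not tested, and every direction given here is between libraries as labelled. The depth, estimated from the low values, was about 1.04e+07 and 1.15e+07 fragments in KO-labelled libraries and 1.55e+07 and 1.19e+07 in WT-labelled ones. Genes averaging 1 FPKM or more numbered 10827, and limma called 5159 of them (47.6%) after Benjamini-Hochberg adjustment with a threshold of 0.05. Higher calls in KO-labelled libraries made up 24.4% of all tested genes and lower calls 23.3%. Leaving out WT replicate 1 brought the calls to 3325, and leaving out WT replicate 2 to 3216. Epithelial markers of a colon carcinoma were near 0 in all 4 libraries, with 0 of 9 reaching the filter, summed levels of 0.972 and 0.696 FPKM in KO-labelled libraries and 0.544 and 1.05 FPKM in WT-labelled ones, and Epcam, Cdx2 and Cldn7 listed at 0 throughout.

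Cells take up iron bound to transferrin through the transferrin receptor, reduce it in endosomes, move it to the cytosol, store it in ferritin and release the surplus through ferroportin. When iron is scarce, the iron regulatory proteins IRP1 and IRP2 bind a hairpin called the iron-responsive element (IRE): bound in a 5′ untranslated region (UTR) it blocks translation, and bound in the 3′ UTR of the transferrin receptor mRNA it protects that mRNA from decay. Tumour cells are known for a high demand for iron, and lipocalin 2 is a secreted protein that withholds iron from bacteria by capturing their siderophores.

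The IREs are shown because iron is known to act through them on some of these genes. A hairpin pattern was searched on the sense strand of UTRs in GENCODE M21 transcripts (GRCm38): a bulged C, 5 paired bases with G-U pairs allowed, a loop of CAGTGN, and the 5 bases that pair with the first arm. Of the 10 genes, 4 held it, against 31 of 21877 protein-coding genes (0.142%) in a 5′ UTR and 129 (0.590%) in a 3′ UTR. The genes were chosen for iron handling and the pattern is that of the known IRE, so these shares are no test. Capitals mark the bulged C and the 6 bases of the loop in windows of 27 bases, written as DNA, 5′ to 3′.
Fth1, 5′ UTR, chr19:9982733-9982759, plus strand: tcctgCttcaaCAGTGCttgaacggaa
Ftl1, 5′ UTR, chr7:45459780-45459806, minus strand: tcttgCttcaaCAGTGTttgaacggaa
Slc40a1, 5′ UTR, chr1:45925466-45925492, minus strand: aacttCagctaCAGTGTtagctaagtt
Tfrc, 3′ UTR, chr16:32631220-32631246, plus strand: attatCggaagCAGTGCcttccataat
Tfrc, 3′ UTR, chr16:32631599-32631625, plus strand: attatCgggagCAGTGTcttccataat
Tfrc, 3′ UTR, chr16:32631664-32631690, plus strand: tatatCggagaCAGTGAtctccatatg
Tfrc, 3′ UTR, chr16:32631711-32631737, plus strand: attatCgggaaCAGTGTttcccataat
The storage and export mRNAs carried a single match before the coding sequence, and Tfrc carried 4 after it. A match describes these letters and is no measure of binding, and FPKM does not read translation. The pattern is narrow, and an mRNA without a match can still carry an IRE, as is known for isoforms of Slc11a2.

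Of the 10 genes, 9 passed the filter on low values and 6 of these were called (66.7%), against 47.6% of all genes tested. Lcn2, Ftl1 and Aco1 were higher in KO-labelled libraries, and Fth1, Slc11a2 and Ncoa4 were lower. Tfrc, Ireb2 and Steap3 did not pass the test, and Slc40a1 lay below the filter. The median log2 change of the 9 was 0.014 and that of all genes tested 0.0056, while the median absolute log2 change was 0.21 in the 9 and 0.18 in all genes. The groups did not overlap for 6 of the 9, against 77.5% of all genes tested. The share called was thus above that of all genes, and the share without overlap below it, over only 9 genes. Changes are on the log2(FPKM + 1) scale, as KO minus WT label, with their standard errors (SE).

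**Figure D1:**
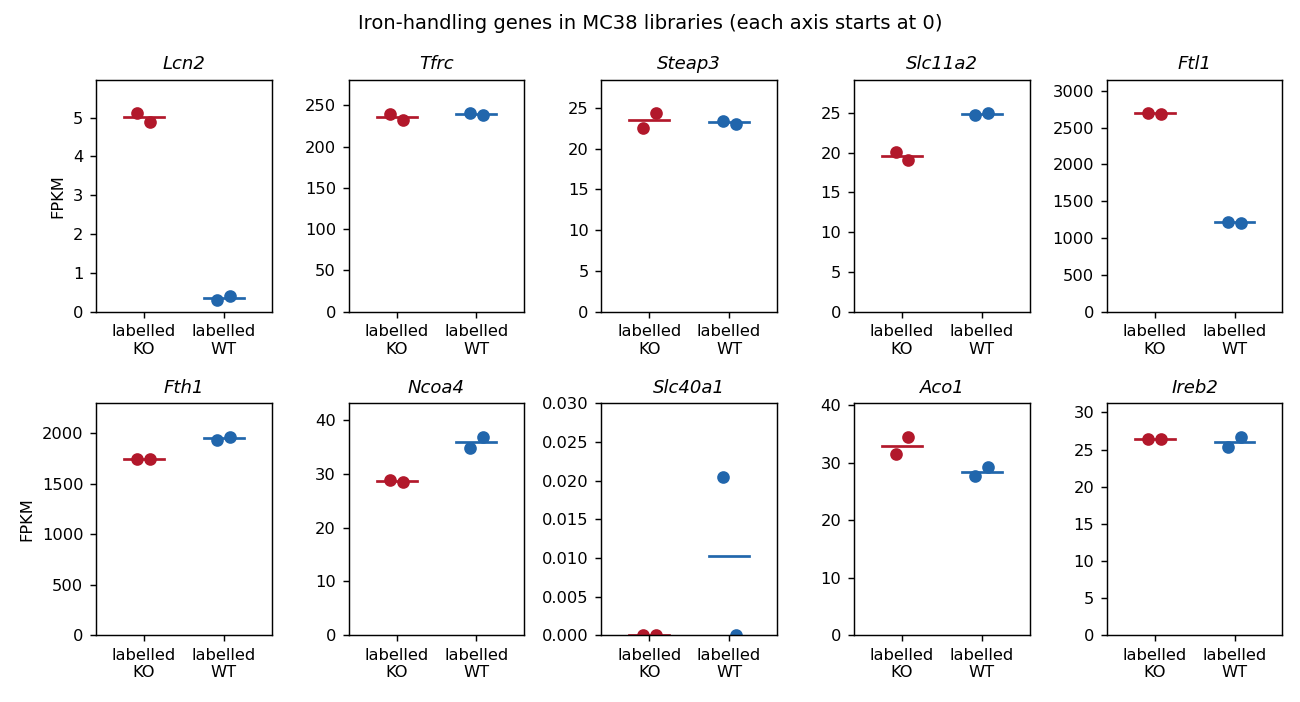
FPKM of each of the 10 genes, with 1 point per library and a line at the mean of the 2 libraries of a group, KO-labelled libraries in red on the left and WT-labelled libraries in blue on the right; each panel has its own linear axis from 0. Lcn2 and Ftl1 stand higher in KO-labelled libraries, Slc11a2, Ncoa4 and Fth1 lower, and the points of Tfrc, Steap3 and Ireb2 overlap between the groups.

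By mean FPKM, a level per transcript length, the order in KO-labelled libraries was Ftl1, Fth1, Tfrc, Aco1, Ncoa4, Ireb2, Steap3, Slc11a2, Lcn2 and Slc40a1. In WT-labelled libraries it was Fth1, Ftl1, Tfrc, Ncoa4, Aco1, Ireb2, Slc11a2, Steap3, Lcn2 and Slc40a1. Neighbours in either order did not overlap between the libraries of that group, although Aco1, Ncoa4, Ireb2, Steap3 and Slc11a2 lay close together, between 19.1 and 36.9 FPKM. The groups differed in the order of 3 pairs: the ferritin subunits, Aco1 with Ncoa4, and Steap3 with Slc11a2.

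The libraries of different label held ferritin transcripts of different makeup: the light subunit was higher in KO-labelled libraries, and the heavy subunit slightly lower. Ferritin is a hollow shell of heavy subunits, which oxidise iron as it enters, and light subunits, which favour its deposition as a mineral core. Ftl1 (ENSMUSG00000050708.16, chr7:45457944-45459884, minus strand), the light subunit, had 2699 and 2687 FPKM in KO-labelled libraries, against 1218 and 1210 FPKM in WT-labelled libraries. The groups lay far apart beside the small differences within each group. Its mean was 2.22 times as high in KO-labelled libraries, a log2 change of 1.15 ± 0.022 (limma adjusted p = 3.1e-05), which ranked 96 among the rises of the 10827 genes tested.

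Fth1 (ENSMUSG00000024661.7, chr19:9980598-9985098, plus strand), the heavy subunit, had 1751 FPKM in each KO-labelled library, against 1932 and 1969 FPKM in WT-labelled libraries. The groups did not overlap, but the difference was small, with the mean 1.11 times as high in WT-labelled libraries. The log2 change was -0.16 ± 0.024 (limma adjusted p = 0.0051), and -0.37 under quantile normalization.

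The order of the subunits therefore turned over between the groups. The ratio of Fth1 to Ftl1 FPKM was 0.649 and 0.652 in KO-labelled libraries, against 1.59 and 1.63 in WT-labelled libraries. On the log2 scale the ratio averaged -0.62 ± 0.0045 in KO-labelled libraries and 0.68 ± 0.025 in WT-labelled libraries (SD, n = 2 each), a difference of -1.30. A ratio within a library does not depend on scaling between libraries. No test was run on this ratio, and the smallest p that an exact two-sided permutation of 2 against 2 libraries can give is 0.33. The subunits together summed to 4451 and 4437 FPKM in KO-labelled libraries, against 3150 and 3179 FPKM in WT-labelled libraries. Ferritin transcripts thus made up 0.697% and 0.705% of all FPKM in KO-labelled libraries and 0.524% and 0.522% in WT-labelled ones. Both subunits were among the most abundant transcripts, with Ftl1 ranked 48 and Fth1 ranked 53 by mean FPKM. No other symbol beginning with Fth or Ftl was listed above 0.

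**Figure D2:**
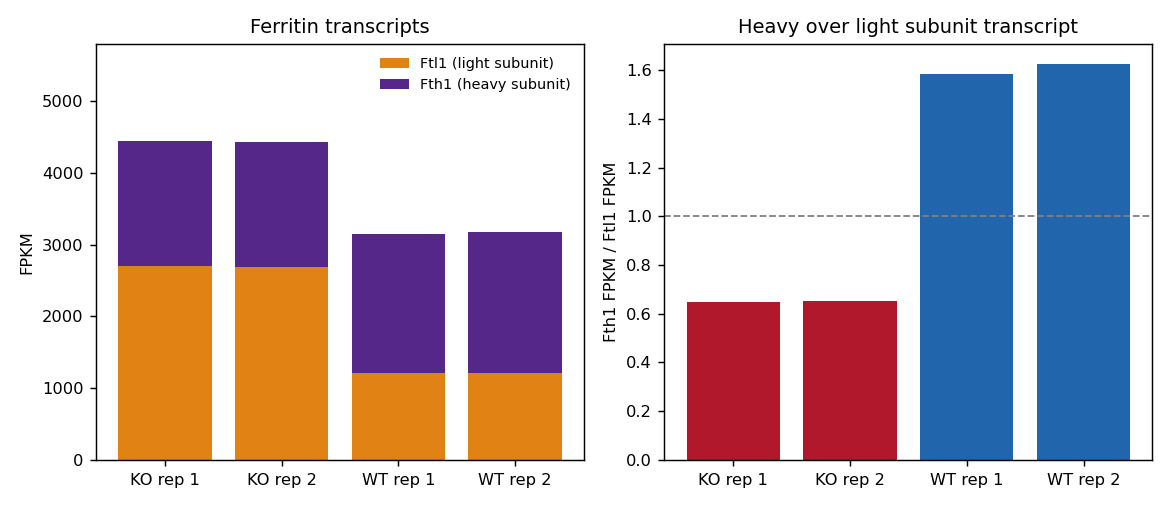
Left, FPKM of Ftl1 and Fth1 stacked for each library, KO-labelled libraries before WT-labelled ones; right, the ratio of Fth1 to Ftl1 FPKM, with a dashed line at 1. The ratio is 0.649 and 0.652 in KO-labelled libraries, below the line, and 1.59 and 1.63 in WT-labelled ones, above it.

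The level of Ftl1 is uncertain in one respect. In GENCODE M21, 9 other annotated genes matched its transcript at 90% identity or more over at least 300 bases, among them Ftl1-ps1 on chromosome 13, which matched 910 of 968 bases at 99.6%. Fth1 had 1 such copy, Gm6977, at 90.5% identity, and how the authors' counting divided reads among copies is not given in the sources used here. None of these copies was found by symbol in the tables, so no value of theirs was used here. Unequal values in a gene and its named copy did occur in these tables. Atp6v0c, a subunit of the vacuolar proton pump, had 267 and 263 FPKM in KO-labelled libraries, against 133 and 154 FPKM in WT-labelled libraries, while its copy Atp6v0c-ps2 had 0.107 and 0.0369 FPKM in KO-labelled libraries, against 124 and 88.9 FPKM in WT-labelled libraries. Whether a copy took part in the values of Ftl1 was not tested.

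Ncoa4 (ENSMUSG00000056234.15, chr14:32159865-32179855, plus strand) binds the heavy subunit and delivers ferritin to autophagy, which frees the stored iron. It had 28.8 and 28.4 FPKM in KO-labelled libraries, against 34.7 and 36.9 FPKM in WT-labelled libraries. Both KO-labelled libraries were lower, at 0.799 times the mean of WT-labelled libraries, and the log2 change was -0.31 ± 0.044 (limma adjusted p = 0.00397). A pseudogene, Gm6768, matched 1878 of the 4065 bases of its transcript at 99.9%, so this level too could be divided by the counting.

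Among the uptake genes, the transferrin receptor and the endosomal reductase did not pass the test, and the endosomal transporter was lower in KO-labelled libraries. Tfrc (ENSMUSG00000022797.16, chr16:32608920-32632794, plus strand), the transferrin receptor with the 4 hairpin matches shown above, had 239.8 and 232.8 FPKM in KO-labelled libraries, against 240.8 and 237.7 FPKM in WT-labelled libraries. The groups overlapped, with a log2 change of -0.018 ± 0.028 (limma adjusted p = 0.615) and a 95% interval of -0.089 to 0.053. Steap3 (ENSMUSG00000026389.16, chr1:120190757-120272705, minus strand), which reduces ferric iron in the endosome, had 22.5 and 24.4 FPKM in KO-labelled libraries, against 23.4 and 23.0 FPKM in WT-labelled libraries. These values overlapped as well, with a log2 change of 0.014 ± 0.052 (limma adjusted p = 0.839) and a 95% interval of -0.12 to 0.15.

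Slc11a2 (ENSMUSG00000023030.16, chr15:100387898-100425072, minus strand) encodes DMT1, which moves ferrous iron out of the endosome into the cytosol. It had 20.0 and 19.1 FPKM in KO-labelled libraries, against 24.7 and 25.0 FPKM in WT-labelled libraries. The groups did not overlap, and its mean in KO-labelled libraries was 0.788 times that in WT-labelled libraries, a log2 change of -0.33 ± 0.044 (limma adjusted p = 0.0034). Some of its isoforms are known to carry an IRE and others to lack one. The FPKM is a sum over isoforms, and the search found no match of these letters in its annotated UTRs.

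Slc40a1 (ENSMUSG00000025993.10, chr1:45908068-45926523, minus strand), ferroportin, the only known exporter of ferrous iron in mammals, was close to undetected. Its value was 0 in both KO-labelled libraries, against 0.0205 and 0 FPKM in WT-labelled libraries, where the single value above 0 amounts to about 1 fragment. No difference was detectable at this depth. A ratio of Tfrc to Slc40a1 could be formed only in WT replicate 1, where it rests on about 1 fragment, and it is not read here.

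Of the iron sensors, Aco1 was slightly higher in KO-labelled libraries and Ireb2 did not pass the test. Aco1 (ENSMUSG00000028405.9, chr4:40143081-40198338, plus strand) encodes IRP1, which is an aconitase when it holds an iron-sulfur cluster and an RNA-binding protein when it does not. It had 31.4 and 34.5 FPKM in KO-labelled libraries, against 27.6 and 29.2 FPKM in WT-labelled libraries. The groups did not overlap, with a log2 change of 0.21 ± 0.059 (limma adjusted p = 0.0374). This call was lost in 5 of 14 alternative settings, among them the removal of KO replicate 2 (adjusted p = 0.125), of WT replicate 1 (0.163) or of WT replicate 2 (0.0792).

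Ireb2 (ENSMUSG00000032293.8, chr9:54863789-54912530, plus strand) encodes IRP2, which is degraded when iron is plentiful and is thus known to be set largely at the protein level. It had 26.4 FPKM in each KO-labelled library, against 25.4 and 26.8 FPKM in WT-labelled libraries. KO-labelled libraries lay between WT-labelled ones, with a log2 change of 0.017 ± 0.043 (limma adjusted p = 0.766) and a 95% interval of -0.093 to 0.13.

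Lcn2 (ENSMUSG00000026822.14, chr2:32384633-32388252, minus strand) showed the highest log2 change of the 9 tested genes, at a low level. It had 5.12 and 4.89 FPKM in KO-labelled libraries, against 0.303 and 0.395 FPKM in WT-labelled libraries. The groups lay far apart, the mean was 14.4 times as high in KO-labelled libraries, and the log2 change was 2.15 ± 0.095 (limma adjusted p = 0.000182). That change ranked 32 among the rises of the 10827 genes tested. It understates the ratio of the means because 1 FPKM was added to each value, and with 0.1 FPKM added it was 3.52. The values rest on few fragments, an estimated 37 and 39 in KO-labelled libraries and 3 in each WT-labelled library. Scaled by depth these give a ratio of 15.8, with an exact 95% interval of 6.95 to 44.5 that covers counting error only and treats the estimated fragments as counts.

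Lcn2 lies on chromosome 2, where higher values in KO-labelled libraries were common. Of 832 tested genes of that chromosome, 54.8% were called higher with a median log2 change of 0.23, against 21.9% and a median of -0.012 among the 9577 tested genes placed elsewhere. The part of this in the change of Lcn2 was not tested. The 3 genes with the profile nearest to Lcn2, by Euclidean distance of centred log2(FPKM + 1) over the 4 libraries, were Prr19 at 0.0881, Mageb4 at 0.10 and Nos2 at 0.103. With 4 libraries such nearness says little more than that these genes had a similar difference between the groups.

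Lcn2 is best known as a product of neutrophils and of inflamed epithelium, so the markers of other cells are given beside it. In bulk RNA, fewer cells of a type and less RNA per cell cannot be told apart. Of 9 neutrophil markers in the tables, 3 were at 0 in all libraries, including S100a9, and the list summed to 1.20 and 0.181 FPKM in KO-labelled libraries, against 2.00 and 4.76 FPKM in WT-labelled libraries. The list's only tested member, S100a8, had 1.06 and 0 FPKM in KO-labelled libraries, against 1.77 and 4.61 FPKM in WT-labelled libraries. It reached the filter through its WT-labelled values, and its call was lost in 10 of 13 alternatives. S100a8 made up most of the sum wherever it was above 0, so the sums mostly follow that low and variable gene. Whether neutrophils contributed to the values of Lcn2 was not tested. Of 9 macrophage markers, Adgre1 and Itgam were at 0 throughout. The list summed to 13.7 and 15.8 FPKM in KO-labelled libraries, against 16.5 and 17.4 FPKM in WT-labelled libraries, most of it Cd14. The tested members of the list moved apart in KO-labelled libraries. The lysosomal glycoprotein Cd68 was lower (log2 change -1.58 ± 0.15) and the endotoxin co-receptor Cd14 higher (0.38 ± 0.086, a call lost in 2 of 14 alternatives). Below the filter, Ptprc, Mrc1 and Lyz2 were lower in both KO-labelled libraries, Csf1r was higher and Cd163 overlapped between the groups. None of these exceeded 1.20 FPKM. Erythroid markers summed to 12.5 and 13.3 FPKM in KO-labelled libraries, against 9.75 and 9.24 FPKM in WT-labelled libraries, most of it Epor, the erythropoietin receptor, which was higher by a log2 change of 0.51 ± 0.073.

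Transcription factors known to act on Lcn2 were called in both directions. Of 8 tested, 3 were higher, 3 were lower and 2 were not called, a share of 75.0% called, against 47.6% of all genes tested (24.4% higher and 23.3% lower). Their median log2 change was -0.068, and with 8 genes nothing particular to the list is read from these counts. Cebpb, a transcription factor of the acute phase response and a known activator of Lcn2, had 40.9 and 40.4 FPKM in KO-labelled libraries, against 12.7 and 14.1 FPKM in WT-labelled libraries. It was higher in both KO-labelled libraries, with a log2 change of 1.53 ± 0.058 (limma adjusted p = 0.000136). Nfkb1, which encodes the NF-κB subunit p50, was higher by 0.52 ± 0.04, and Nfkbiz, which encodes the IκBζ cofactor, by 0.35 ± 0.08, the call of Nfkbiz being lost in 3 of 14 alternatives. Stat3, a transducer of interleukin signals, was lower by a log2 change of -0.50 ± 0.048 and Nfkb2 by -0.20 ± 0.031. Rela (0.049 ± 0.036) and Relb (-0.19 ± 0.079) were not called, and Cebpd lay below the filter.

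Because Cebpb and Lcn2 were both higher, the 250 bases before the RefSeq start of Lcn2 are shown (GRCm38.p6, chr2:32387740-32387989, minus strand). Capitals mark the match to TTGCNNAA, a C/EBP-type motif searched on the gene's strand only.
Lcn2: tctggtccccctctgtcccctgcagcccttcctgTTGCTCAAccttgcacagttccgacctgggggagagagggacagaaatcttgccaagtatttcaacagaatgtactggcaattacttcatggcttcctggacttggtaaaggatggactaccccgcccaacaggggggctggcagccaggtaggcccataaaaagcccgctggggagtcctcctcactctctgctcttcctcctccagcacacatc
The match began 216 bases before the RefSeq start. GENCODE M21 places the 5′ end of Lcn2 farther upstream, at chr2:32388252, so the whole window lies within its GENCODE span. On the strand of each gene, the same letters occurred in 1689 of 32851 such windows (5.14%). Among the windows available for the 10 genes, they occurred in that of Lcn2 and in 1 of Fth1. The match is a description of the sequence and no evidence that the factor binds there.

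Among RNA-binding proteins known to act on Lcn2 or Tfrc mRNA, 3 of 8 tested were higher, 2 lower and 3 not called. The share called was 62.5%, against 47.6% of all genes tested, with a median log2 change of 0.15. The 3 higher include Arid5a, the targeted gene, which reached the filter only through its KO-labelled values. With 8 genes nothing particular to the list is read from these counts. Upper-quartile scaling called 5 higher, and leaving out any 1 of the 4 libraries left 1 called lower. Zc3h12a, which encodes Regnase-1, a nuclease known to degrade Tfrc mRNA, had 5.91 and 6.57 FPKM in KO-labelled libraries, against 3.66 and 3.89 FPKM in WT-labelled libraries. It was higher in both KO-labelled libraries (log2 change 0.60 ± 0.08, limma adjusted p = 0.00342), while Tfrc itself did not pass the test. Arid5a was higher by 1.33 ± 0.13, which understates its ratio of means, 11.3, because 1 FPKM was added to low values. The decay factor Zfp36l1 was higher by 0.64 ± 0.058, and Zfp36l2, of the same family, was lower by a log2 change of -0.39 ± 0.029. Zfp36 was called lower at -0.21 ± 0.058, a call lost in 6 of 14 alternatives, and Rc3h1, Rc3h2 and Elavl1 were not called.

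**Figure D3:**
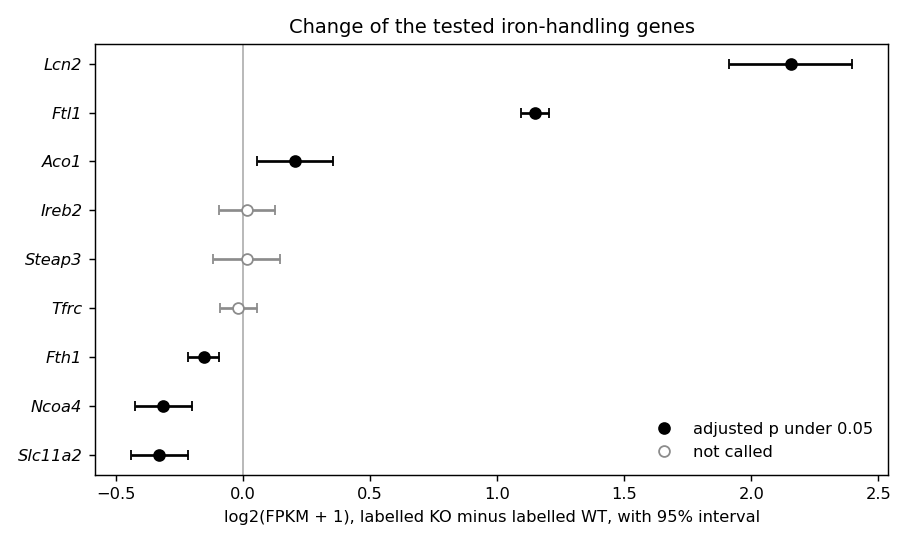
Log2 change of the 9 tested genes, KO-labelled libraries minus WT-labelled libraries on the log2(FPKM + 1) scale, with limma's 95% intervals; filled points have an adjusted p under 0.05. Lcn2 (2.15) and Ftl1 (1.15) stand apart from the other 7, which lie between -0.33 and 0.21.

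The wider pathway was described by 82 further genes of iron and heme handling, of which 78 were in the tables and 60 were tested. The test called 13 higher and 13 lower in KO-labelled libraries, together 43.3% against 47.6% of all genes tested, with a median log2 change of -0.072. The share called was therefore near that of all genes. The single lists held 1 to 19 tested genes, and their counts are to be read against the same 47.6%. Leaving out KO replicate 1 or KO replicate 2 left 8 called higher, and leaving out WT replicate 1 or WT replicate 2 left 6. The count called lower was 8 without WT replicate 1 and 9 to 13 without any other single library.

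Among 7 other tested genes of uptake and reduction, 1 was higher and 2 were lower. Slc39a8, the metal importer ZIP8, had 7.48 and 6.40 FPKM in KO-labelled libraries, against 16.2 and 13.9 FPKM in WT-labelled libraries. It was lower in both KO-labelled libraries, with a log2 change of -1.02 ± 0.1 (limma adjusted p = 0.00148). The related importer Slc39a14 (ZIP14) was lower at -0.21 ± 0.058 and the metalloreductase Steap2 higher at 0.26 ± 0.053, calls that were lost in 5 and 3 of 14 alternatives. Known receptors for lipocalin 2 were near 0: Slc22a17 was listed at 0 and 0.042 FPKM in KO-labelled libraries and at 0 in both WT-labelled libraries, and Lrp2 did not exceed 0.0298 FPKM. Transferrin itself (Trf) was listed at 0 except for 0.0399 FPKM in WT replicate 2.

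Of the export genes, a single one was tested. Cp, ceruloplasmin, a copper oxidase that loads exported iron onto transferrin, had 2.04 and 2.49 FPKM in KO-labelled libraries, against 5.94 and 5.63 FPKM in WT-labelled libraries. It was lower in both KO-labelled libraries, with a log2 change of -1.06 ± 0.097 (limma adjusted p = 0.00115). The other 7 in the tables lay below the filter, and 4 of them, including the hormone hepcidin (Hamp), were listed at 0 in all libraries.

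Among iron chaperones and other storage genes, 1 of 5 tested was higher and 2 were lower, all by little. Pcbp1, a chaperone that delivers iron to ferritin, was higher by 0.14 ± 0.024, a call lost under quantile normalization (adjusted p = 0.107). Its relative Pcbp2 was lower at -0.12 ± 0.025, a call lost in 4 of 14 alternatives, and Bola2, a partner of the glutaredoxin Glrx3, was lower at -0.23 ± 0.026. Among 9 tested regulators of IRP1 and IRP2, 1 was higher and 2 were lower. Fbxl5, the iron-sensing subunit of the ligase that degrades IRP2, had a log2 change of -0.088 ± 0.063 and was not called, while Rbx1, a shared subunit of cullin ligases, was lower at -0.27 ± 0.044. Ciao1 and Fam96a, of cytosolic cluster assembly, were called at 0.34 ± 0.087 and -0.19 ± 0.037, with calls lost in 4 and 1 of 14 alternatives. Of the 3 other tested mRNAs known to carry an IRE, Cdc42bpa, a kinase, was higher at 0.36 ± 0.062, a call lost without WT replicate 2.

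In the mitochondrial list, 3 of 19 were higher and 3 lower, a share of 31.6%, against 47.6% of all genes tested. On leaving out KO replicate 1, WT replicate 1 or WT replicate 2, a single gene of the list was called higher. Isca1, an assembly factor for iron-sulfur clusters, had 28.7 and 28.4 FPKM in KO-labelled libraries, against 43.6 and 43.8 FPKM in WT-labelled libraries. It was lower by a log2 change of -0.60 ± 0.034 (limma adjusted p = 0.000325), as was the cluster protein Cisd2 by -0.35 ± 0.038. The ferredoxin Fdx1 was higher by 0.23 ± 0.045, a call lost in 3 of 14 alternatives.

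Of 8 tested genes of heme breakdown and transport, 4 were higher and 1 lower, a share of 62.5%, against 47.6% of all genes tested (24.4% higher and 23.3% lower), and their median log2 change was 0.10. The count called higher was 2 on leaving out KO replicate 1, KO replicate 2 or WT replicate 1, and 3 on leaving out WT replicate 2. Hmox1, heme oxygenase 1, which opens the heme ring and frees its iron, had 155.6 and 164.6 FPKM in KO-labelled libraries, against 90.4 and 88.5 FPKM in WT-labelled libraries. It was higher in both KO-labelled libraries, with a mean 1.79 times that in WT-labelled libraries and a log2 change of 0.83 ± 0.037 (limma adjusted p = 0.000182). The biliverdin reductase Blvra, which takes up the next step, was higher by 0.37 ± 0.037, and Blvrb was lower by a log2 change of -0.25 ± 0.035. Hmox2, the constitutive oxygenase, was higher by 0.16 ± 0.035, a call lost without any 1 of the 4 libraries. Of 8 enzymes of heme synthesis, 2 were higher and 1 lower: Alas1, the rate-limiting first enzyme, at 0.36 ± 0.071 (lost in 2 of 14 alternatives), Ppox at 0.25 ± 0.058 (lost in 3) and Uros at -0.32 ± 0.056 (lost in 1).

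**Figure D4:**
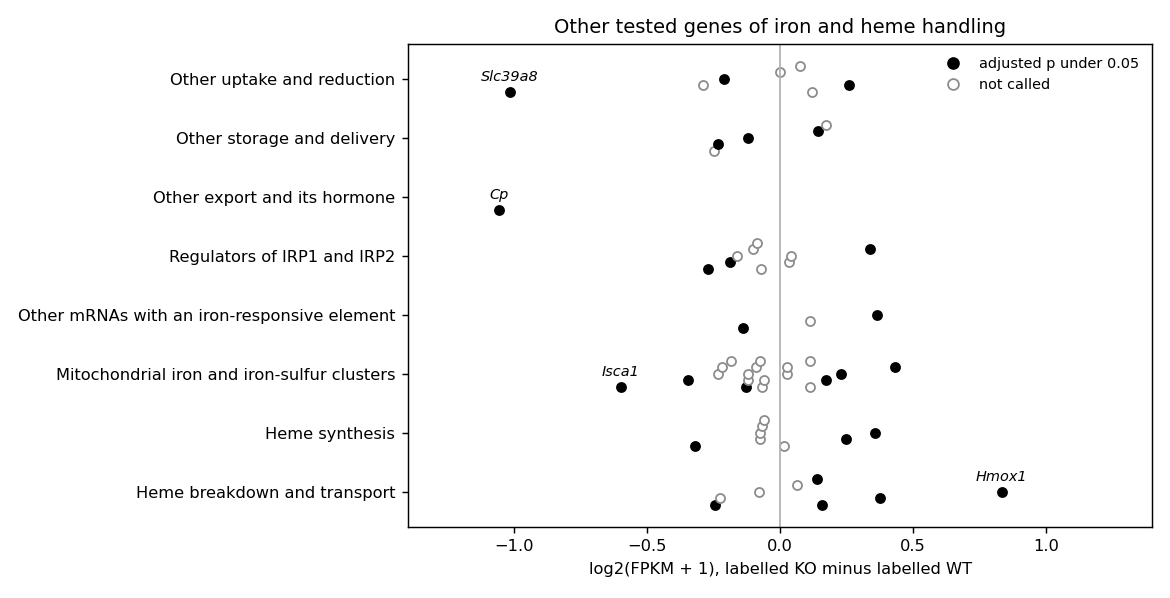
Log2 change, KO-labelled libraries minus WT-labelled libraries, of the 60 other tested genes by list, with 1 point per gene, filled where the adjusted p was under 0.05 and named where the change also exceeded 0.55 in size. Hmox1 (0.83) stands highest, Slc39a8 (-1.02) and Cp (-1.06) lowest, and most genes lie near 0.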

How the data were processed

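The authors deposited FPKM values for 24346 gene symbols in each of 4 libraries. Per the labels' protocols, libraries were made with a stranded mRNA kit. The tools named per the submitters' processing notes were Cufflinks 2.2.1, TopHat2 2.0.13 with Bowtie2 2.2.3, and SAMtools 0.1.19, on the build mm10. Their settings, the annotation and the use of strand are not given in the sources used here. Cufflinks sums FPKM over isoforms, so exact read counts could not be recovered and the test of groups used no count model. Only the interval on the fragments of Lcn2 treats estimated fragments as counts.

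From the deposited FPKM, log2(FPKM + 1) was computed for the 10827 genes whose mean of the 4 values reached 1 FPKM. The comparison of KO-labelled with WT-labelled libraries used limma 3.58.1 under R 4.3.3 (lmFit, eBayes with a mean-variance trend, no block, two-sided). Calls were made at a Benjamini-Hochberg adjusted p under 0.05 over all genes tested. The code was tested on simulated data. Depth was estimated from values up to 0.1 FPKM, where 90.8% to 91.9% of the ratios to WT replicate 1 were whole-number ratios (terms up to 6, tolerance 1%). Intervals on fragments cover counting error only.

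Loci and IRE searches used GENCODE M21 (GRCm38, the same assembly as mm10), and upstream windows used RefSeq. Of the symbols in the tables, 23268 matched 1 gene. Near copies were found with BLAST+ 2.17.0. The genes and lists were chosen with earlier results of these data known. The text names all 10 genes, up to 4 called genes per list by absolute log2 change, all tested transcription factors, RNA-binding proteins and markers, and the 3 genes nearest to Lcn2. A few genes that this rule names are not reported here. Genes outside that rule, namely Slc22a17, Lrp2, Trf, Hamp, Fbxl5, Atp6v0c, Atp6v0c-ps2 and markers below the filter, were chosen after their values were seen. The alternatives were other pseudocounts (0.1 and 0.5), no filter or one of 5 FPKM, 3 scalings, no trend, robust moderation, a replicate block and leaving out each library.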

Additional observations from a re-analysis of the deposited data

How the results depend on the processing

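Lcn2 was called in the 13 alternatives that tested it (adjusted p 1.08e-05 to 0.00317; it fell below the filter of 5 FPKM), and Ftl1, Fth1, Slc11a2 and Ncoa4 were called in all 14, each with the same direction. Aco1 lost its call with no filter (adjusted p = 0.0643), with no variance trend (0.0672) and without 3 of the 4 libraries; the fit without a library left 10827 genes but fewer libraries, and the lone library of a group was assumed to vary like the other group. Over the fits without 1 library, the log2 change of Tfrc ranged from -0.040 to 0.0030, that of Ireb2 from -0.020 to 0.054 and that of Steap3 from -0.041 to 0.069, so the direction of these uncalled genes depended on single libraries. The count of all called genes was 5159 and ranged from 3216 to 3974 without 1 library, the lowest on leaving out WT replicate 2 (WT replicate 1 gave 3325). The count of other iron genes called higher was 13 and ranged from 6 to 8, and that called lower was 13 and ranged from 8 to 13. Of 392 counts of single lists under alternatives, 331 stayed within 1.5 times the count reported, with 0 against 0 taken as unchanged. Many of these counts were 0 or 1, so that share says little about how stable a list was. The labels do not say that equal replicate numbers mark a shared culture or day, and with 2 pairs the correlation of the differences within groups (r = 0.14 over genes) does not show it; the replicate block gave 4673 called genes and the same 6 of the 10 genes. The log2 ratio of Fth1 to Ftl1 kept its sign in each library. Depth limits Slc40a1 and, in WT-labelled libraries, Lcn2.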
